A study of Caenorhabditis elegans with 66 samples.

Results

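The major sperm protein (msp) genes of the nematode Caenorhabditis elegans were described across chromatin immunoprecipitation sequencing (ChIP-seq) peak lists of 3 FLAG-tagged subunits of SNAPc, the small nuclear RNA activating protein complex. The members are every annotated protein-coding gene whose symbol begins with msp-, which gave 31 of 19983 protein-coding genes. A further 4 annotated msp pseudogenes were not counted. A peak was assigned to a gene if its summit was no more than 200 bp from the gene's span, or, for a gene above 500 bp, from either end.

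The series holds 33 immunoprecipitated libraries in 11 groups of 3, each with its own input library. SNPC-4 was studied in whole worms of the strain snpc-4::3xflag at 48 h (the L4 larval stage) and at 72 h (gravid adults). It was also studied in snpc-4::3xflag; snpc-1.3(-) at 48 h and in snpc-4::3xflag; snpc-1.2(-) at 72 h, and the untagged wild type N2 was taken at both ages. A separate set held snpc-1.2::3xflag at 72 h, the same tag in a strain that also carries snpc-4::aid together with Psun-1::tir1 at 72 h, and N2 at 72 h, all in whole worms. In that strain SNPC-4 carries an auxin-inducible degron (AID), and the sun-1 promoter drives the TIR1 receptor in the germline. The labels used here name no auxin treatment. The last set held snpc-1.1::3xflag and N2 in isolated germline nuclei at 56 h (young adults). In whole worms, the number of cells with an occupied site and the occupancy per cell cannot be told apart.

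Major sperm protein is the main structural protein of nematode sperm. Its filaments drive the crawling of these sperm, which lack an actin-based motility system, and MSP released from sperm signals to oocytes to mature and to the gonad to contract. The genes form a multicopy family of nearly identical short genes that is transcribed while sperm are made, which in hermaphrodites happens in the last larval stage before the germline turns to oocytes. SNAPc binds the promoters of small nuclear RNA genes, and in C. elegans it also binds at piRNA genes, many of which lie in clusters on chromosome IV. SNPC-1.3 is known to promote the piRNAs of the male germline.

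The SNPC-4 lists held 14538 to 16732 peaks and the N2 lists of the same set 947 to 4229. The SNPC-1.2 lists held 4791 to 9926 peaks, those of the AID strain 67 to 281, and those of SNPC-1.1 1504 to 14912. The N2 lists of the SNPC-1.2 set held 2 to 16 peaks, and those of the SNPC-1.1 set 28 to 1001. Read depth is unknown. Nothing in the labels says that replicates of a group came from separate cultures, so p-values measure only the spread between these libraries, which may be technical. Folds are the authors' ratio of IP over input signal at each summit. Coordinates are on WBcel235.

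Of the 31 msp genes, 13 lay on chromosome II between 4785898 and 5810330 and 18 on chromosome IV. On chromosome IV, 9 lay inside the smaller piRNA cluster, taken as 4500000 to 7000000. These were msp-55, msp-57, msp-53, msp-19, msp-51, msp-113, msp-58, msp-59 and msp-65, between 5055631 and 5316906. The other 9 lay between 9689015 and 10143740, outside that cluster. The annotated span was 384 bp for 28 of the 31 genes. A short RNA gene lay within 500 bp of the span of 3 members, all in the cluster. These were msp-55 (the piRNA gene 21ur-13692 at 380 bp), msp-57 (the SL2 spliced leader gene sls-2.13 at 461 bp) and msp-65 (the piRNA genes 21ur-5843 and 21ur-9992 at 128 and 129 bp, and the SL2 gene sls-2.17 at 354 bp). SL2 RNAs donate the leader that is spliced onto downstream genes of operons.

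SNPC-4 peaks were found at 8 msp genes, of which 7 were in the smaller cluster and 1, msp-50, was on chromosome II. This is 25.8% of the 31 genes, near the 25.2% of all protein-coding genes with a peak in at least 1 SNPC-4 list. The other 23 msp genes had no peak in any of the 33 lists. No msp gene had a peak in any of the 12 N2 lists, in the SNPC-1.2 lists or in those of the AID strain. The N2 lists outside the SNPC-4 set, of 2 to 16 and 28 to 1001 peaks, and the AID lists are short. Absence from them says little. In the SNPC-1.1 lists msp-50 alone had a peak, in 3 of 3 libraries. The grid of folds by gene and list shows a single strong row, msp-50, and weak values at the cluster genes.

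**Figure D1:**
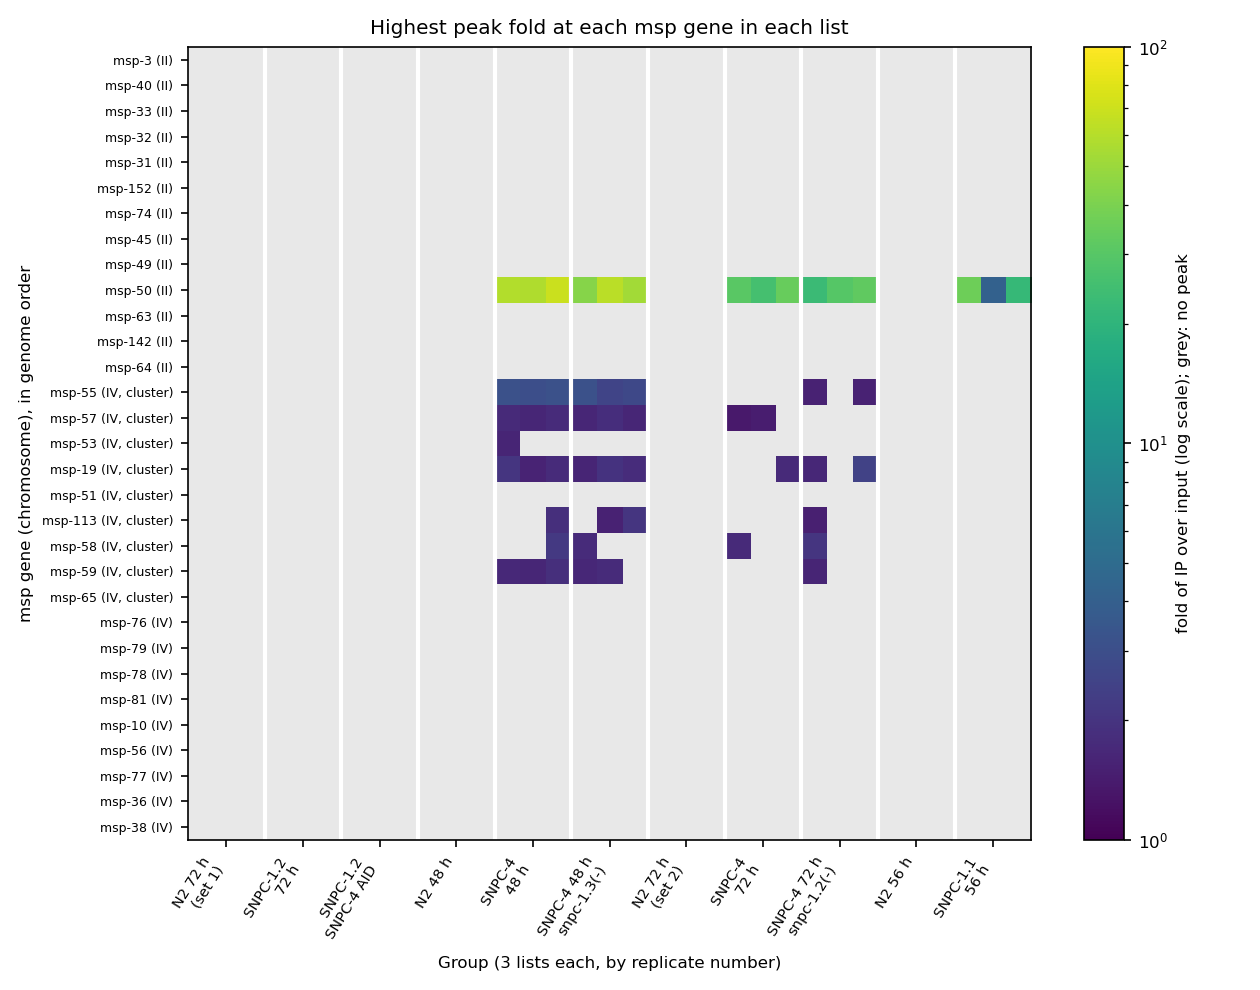
Highest peak fold (IP over input, log colour scale) at each of the 31 msp genes (in genome order, with chromosome; "cluster" marks the smaller piRNA cluster) in each of the 33 lists, grouped by strain and age; grey means no peak by the 200 bp rule. The row of msp-50 is filled in 15 lists, and those of the cluster genes mostly at 48 h, with folds no higher than 3.15.

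At 48 h the SNPC-4 lists held peaks at 6, 5 and 7 msp genes, a mean of 6.00 ± 1.00 (SD, n = 3), or 19.4% of the 31 genes. At 72 h they held peaks at 3, 2 and 2 msp genes, 2.33 ± 0.577 (SD, n = 3), or 7.53%. The groups did not overlap, with fewer msp genes marked in adults than in larvae. The difference of 3.67 genes fell to 1.00 with a fold minimum of 3 and to 1.00 with a 100 bp window. By overlap of the called region it fell to 2.67, with means of 6.67 at 48 h and 4.00 at 72 h. Over all protein-coding genes the share was 15.5% ± 0.616 at 48 h and 17.5% ± 0.355 at 72 h (SD, n = 3), so the whole gene set did not fall with age.

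The difference between ages lay in the cluster genes. Of the 9 msp genes there, 55.6% ± 11.1 had a peak at 48 h and 14.8% ± 6.42 at 72 h (SD, n = 3), while the 1 of 22 msp genes elsewhere was marked in every list of both ages. The 471 other protein-coding genes of the cluster stood at 57.3% ± 1.78 and 50.1% ± 4.03. Those of up to 500 bp, 28 genes of about the members' size class, stood at 36.9% ± 5.46 at 48 h and 27.4% ± 2.06 at 72 h. Outside the cluster, genes of up to 500 bp had a peak in 11.7% ± 0.935 at 48 h and 11.9% ± 0.672 at 72 h, against 4.55% for the msp genes elsewhere. These shares are descriptions, and the difference between msp genes and other genes was not tested.

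**Figure D2:**
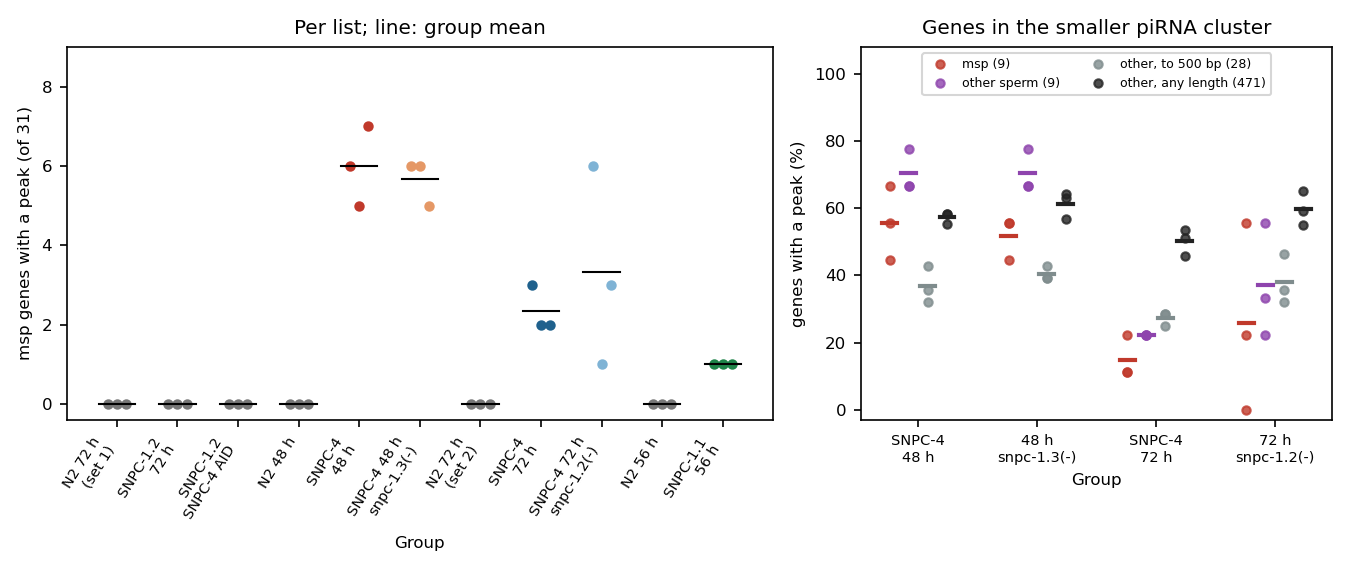
Left, the number of msp genes (of 31) with a peak in each list, by group, with the group mean as a line (n = 3); the SNPC-4 lists hold 5 to 7 at 48 h and 2 to 3 at 72 h, and the N2 lists hold 0. Right, the percent of genes of the smaller piRNA cluster with a peak in each SNPC-4 list, for msp genes, other sperm genes, other protein-coding genes of up to 500 bp and all other protein-coding genes. Lines are means and the number of genes is in brackets, and the last 2 sets include the other sperm genes. In the strain without a null allele every set lies lower at 72 h than at 48 h, msp and other sperm genes by the most.

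Peak presence in the 12 SNPC-4 lists was compared with that in the 6 N2 lists of the same set, gene by gene, by an exact two-sided permutation test with age as a stratum. It has 7056 labellings and a smallest p of 0.000142, and p-values were Benjamini-Hochberg adjusted over all 19983 protein-coding genes. Of the 31 msp genes, 1 passed at adjusted p under 0.05, which was msp-50 with a peak in 12 of 12 SNPC-4 lists and 0 of 6 N2 lists (adjusted exact permutation p = 0.00347). The share called among all protein-coding genes was 8.08%, against 3.23% of the msp genes. The next members were msp-19 with a peak in 9 of the 12 SNPC-4 lists (adjusted exact permutation p = 0.0637), and msp-55 and msp-57 with 8 each (0.0594 for both). The remaining members with peaks were msp-59 with 6 lists (adjusted exact permutation p = 0.250) and msp-113, msp-58 and msp-53 with 4, 4 and 1 (1.00 for each).

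Within 1 age, 3 against 3 lists cannot go below an exact permutation p of 0.1, so genes were counted that had a peak in all 3 lists of one group and in none of the other. At 48 h, 5 msp genes had a peak in all 3 SNPC-4 lists and no N2 list, namely msp-50, msp-55, msp-57, msp-19 and msp-59, or 16.1% of the members against 8.7% of all protein-coding genes. At 72 h only msp-50 of the msp genes met this count, against 8.8% of all genes. Between ages, msp-55 and msp-59 had a peak in all 3 SNPC-4 lists at 48 h and none at 72 h, or 6.45% of the members against 0.636% of all genes. No msp gene went the other way, which 1.55% of all genes did. Both msp-55 and msp-59 lie in the smaller cluster. There 57.3% of the other protein-coding genes had a SNPC-4 peak at 48 h, against 15.5% of all protein-coding genes. The share of cluster genes with this change between ages is not given here.

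The gene msp-50 (locus C34F11.4, chromosome II, 5199797 to 5200180) carried the strongest peak of the family. Its fold in the SNPC-4 lists at 48 h was 59.1, 58.3 and 69.5, and at 72 h it was 30.9, 25.8 and 34.0. In worms lacking snpc-1.3 at 48 h it was 43.7, 62.4 and 52.6, and in worms lacking snpc-1.2 at 72 h it was 23.1, 29.9 and 32.3. All 6 values at 48 h were above all 6 at 72 h, and the peak was among the top 1.54% of each of the 12 SNPC-4 lists by fold. In the SNPC-1.1 lists from germline nuclei the fold was 36.2, 4.19 and 21.7 in replicates 2, 3 and 4, with the lowest value in the shortest list.

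The mean fold at msp-50 in the strain without a null allele was 62.3 ± 6.25 at 48 h and 30.2 ± 4.14 at 72 h (SD, n = 3), a ratio of 2.06. The difference was larger than the spread between replicates. It was not tested, as 3 against 3 lists cannot go below an exact two-sided permutation p of 0.1. The log2 ratio was 1.04, while its median was -0.37 over the 2118 protein-coding genes with a peak in all 6 lists. Every fold at 48 h was above every fold at 72 h for 8.92% of those 2118 genes, and the reverse held for 1176 of them (55.5%). Among the 49 of these genes with a mean fold of 20 or more, 2 including msp-50 had a log2 ratio at least as high. The peak was therefore higher in larvae while most shared peaks were listed with lower folds there.

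The msp-50 summit lay in a narrow window between 5200357 and 5200367 in the 12 SNPC-4 lists, 177 to 187 bp beyond the higher-coordinate end of the gene, close to the 200 bp limit. It was the top summit of its own region of 1484 to 1893 bp in each of these lists. A weaker summit with a fold of 1.66 to 3.43 lay 1313 to 1396 bp from the lower-coordinate end in the same lists. The annotated neighbours were C34F11.5, which ends 533 bp below the gene, and, above it, no gene within 1500 bp. The nearest short RNA gene in the annotation used, a tRNA gene, lay 37682 bp from the gene, and the nearest annotated non-coding RNA gene of any kind 11384 bp. The annotation gives no strand, so which end of msp-50 is its promoter is not stated here, and no sequence of the site was read.

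**Figure D3:**
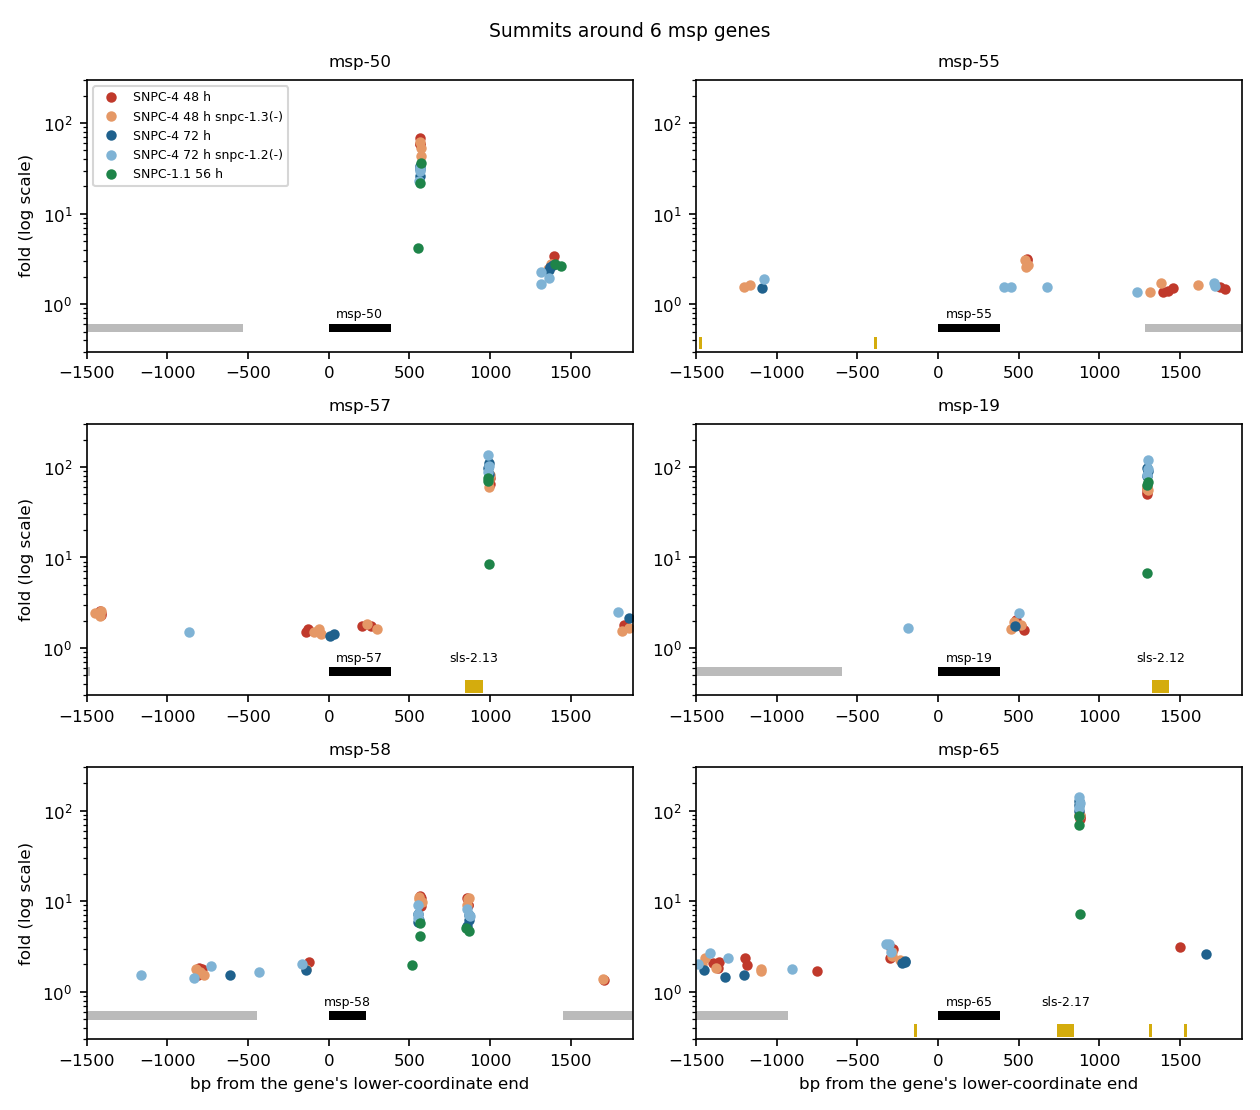
Peak summits around 6 msp genes by distance in bp from the gene's lower-coordinate end (x axis) and by fold of IP over input (y axis, log scale), coloured by group; black bars are the named msp gene, grey bars other protein-coding genes and gold bars short RNA genes. Summits of fold 23.1 to 69.5 in the SNPC-4 lists stand beyond msp-50 with no short RNA gene in view, while the strong summits near msp-57, msp-19 and msp-65 stand at SL2 genes.

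The cluster genes carried weak peaks. Over msp-55, msp-57, msp-53, msp-19, msp-113, msp-58 and msp-59 there were 40 peaks in the 12 SNPC-4 lists, with folds of 1.37 to 3.15. Each was in the lower part of its list, with between 52.3% and 99.7% of the list's peaks at or above its fold. In 26 of the 40 the called region had its top summit elsewhere, and in 13 of those the top summit lay within 100 bp of an SL2 gene. None of the 55 summits counted at msp genes, those of msp-50 included, lay within 500 bp of an annotated short RNA gene, and the nearest distance was 547 bp.

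The gene msp-55 (5055631 to 5056014) was the one cluster member whose peak was its own region in every list that had it. Its fold at 48 h was 3.15, 3.05 and 3.11 in SNPC-4 worms and 3.12, 2.57 and 2.72 in worms lacking snpc-1.3. At 72 h it had no peak in SNPC-4 worms, and it had folds of 1.55 and 1.56 in replicates 1 and 3 of worms lacking snpc-1.2. The larval lists thus all held a peak, at higher folds than the 2 adult lists that held one. In those 2 adult lists the summit lay 453 and 406 bp from the lower-coordinate end, with −log10 q-values of 3.13 and 1.98. Whether it marks the same site as the larval summit was not tested. At 48 h the summit lay 537 to 557 bp from the lower-coordinate end, at least 154 bp beyond the higher-coordinate end and on the side away from 21ur-13692, in regions of 427 to 566 bp.

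The peaks of msp-57 (5062578 to 5062961) and msp-19 (5260589 to 5260972) were minor summits of larger regions in all lists but 1 of msp-19. At msp-57 the fold was 1.73, 1.64 and 1.77 at 48 h and 1.64, 1.84 and 1.64 in worms lacking snpc-1.3. It was 1.37 and 1.44 in 2 lists at 72 h, with no summit within the 200 bp rule in worms lacking snpc-1.2. All 8 lay in regions of 1988 to 2320 bp whose top, of fold 60.0 to 97.4, stood 36 to 46 bp from sls-2.13. At msp-19 the fold at 48 h was 2.02, 1.59 and 1.75, and 1.62, 1.95 and 1.78 in worms lacking snpc-1.3. It was 1.73 in 1 list at 72 h, and 1.68 and 2.46 in 2 lists of worms lacking snpc-1.2. In 8 of the 9 lists the region's top stood elsewhere with a fold of 52.5 to 136, in 2 lists at sls-2.12 and in 6 about 200 bp from the piRNA gene 21ur-7377. Called regions overlapped both msp-57 and msp-19 in all 12 SNPC-4 lists. The lists without a peak at these genes thus lacked only a summit within the 200 bp rule.

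The SL2 genes beside these members went the other way with age. At sls-2.13 the fold was 64.9 to 74.5 in SNPC-4 worms at 48 h and 82.6 to 111 at 72 h. At sls-2.12 it was 50.2 to 56.4 and 79.3 to 97.4, and at sls-2.17, beside msp-65, 80.5 to 87.4 and 99.0 to 127. At all 3 the groups did not overlap, with the adults higher, as at 55.5% of the 2118 protein-coding genes with a peak in all 6 lists. At msp-50 the order was the opposite. SNPC-1.2 was listed at these SL2 genes with folds of 8.17 to 21.6, and at no msp gene by the 200 bp rule.

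**Figure D4:**
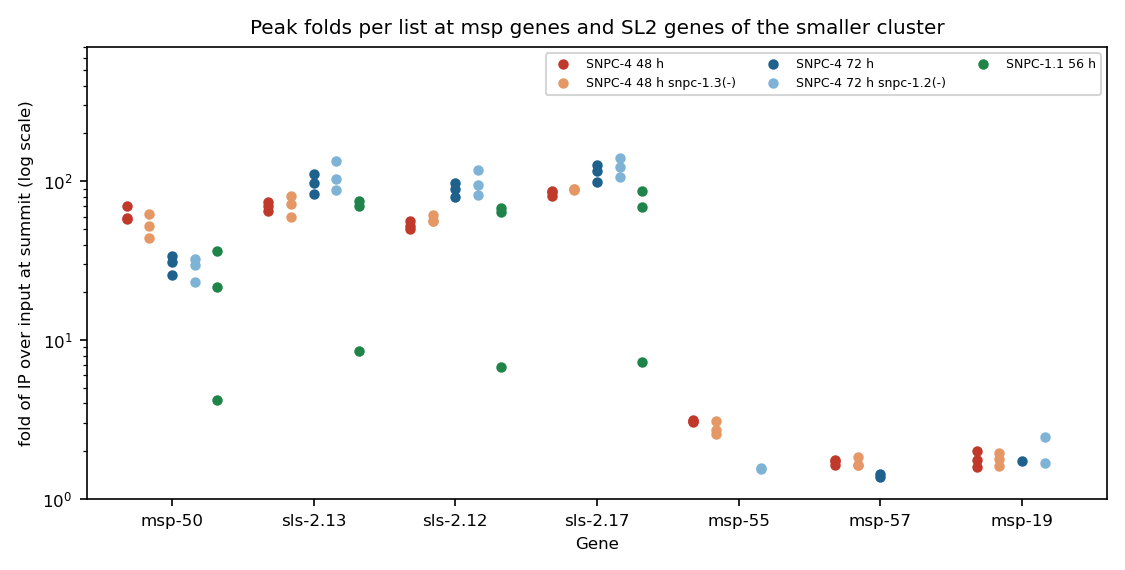
Fold of IP over input at the summit (log scale) in each list, coloured by group, at msp-50, at 3 SL2 genes of the smaller cluster and at msp-55, msp-57 and msp-19; lists with no peak have no point. At msp-50 the SNPC-4 folds are higher at 48 h (58.3 to 69.5) than at 72 h (25.8 to 34.0), and at the SL2 genes they are lower at 48 h.

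At msp-59 (5312728 to 5313111) the fold at 48 h was 1.71, 1.64 and 1.87, with peaks in 2 lists of worms lacking snpc-1.3, 1 list of worms lacking snpc-1.2 and no SNPC-4 list at 72 h. Its 6 regions had their top elsewhere in each list. At 48 h a higher summit, of fold 2.36 to 3.45, stood 215 to 253 bp beyond the higher-coordinate end, just outside the 200 bp rule, and no summit stood between 200 and 500 bp at 72 h. The gene msp-113 had peaks in 4 lists with folds of 1.50 to 2.02, msp-58 in 4 lists with folds of 1.73 to 2.15, and msp-53 in 1 list with a fold of 1.60.

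The annotated span of msp-58 (5308593 to 5308826) is 234 bp, and a stronger summit stood just outside its window in all 12 SNPC-4 lists, 318 to 343 bp beyond the higher-coordinate end. Its fold was 11.5, 8.77 and 10.9 at 48 h and 7.20, 5.85 and 6.16 at 72 h. It was 11.2, 9.83 and 10.4 in worms lacking snpc-1.3, and 6.56, 7.16 and 9.07 in worms lacking snpc-1.2. In the strain without a null allele the values at 48 h were all above those at 72 h, as at msp-50. This order held at 8.92% of the 2118 protein-coding genes with a peak in all 6 lists. With the null strains included the ages overlapped, unlike at msp-50, as 9.07 without snpc-1.2 at 72 h was above 8.77 at 48 h. The nearest annotated short RNA gene was 6476 bp from msp-58. This summit was singled out after its values were seen, and by the rule it is no peak of msp-58. In the SNPC-1.1 lists its fold was 5.68, 1.96 and 4.17. A further summit of fold 5.30 to 10.9 stood 856 to 877 bp from the lower-coordinate end in all 12 SNPC-4 lists. In some of those lists it was the higher one.

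The cluster genes msp-51 and msp-65 had no peak by the rule. Called regions overlapped the span of msp-65 in all 12 SNPC-4 lists and that of msp-51 in 0. At msp-65 (5316523 to 5316906) a weak summit stood outside the span on the side of the 2 piRNA genes in every SNPC-4 list, between 203 and 323 bp away with a fold of 2.06 to 3.40. The strong summit of sls-2.17 stood 489 to 499 bp beyond its other end. At msp-51 the median distance to the nearest SNPC-4 summit was 741 bp. For the 12 msp genes without a peak on chromosome II the median over genes of that distance was 7574 bp, and for the 9 elsewhere on chromosome IV it was 9304 bp. None of those 21 genes had a summit within 500 bp in any list.

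Loss of snpc-1.3 left the count of marked msp genes at 48 h within the spread between replicates. The lists of worms lacking snpc-1.3 held peaks at 6, 6 and 5 msp genes (5.67 ± 0.577, SD, n = 3), against 6, 5 and 7 in SNPC-4 worms. The difference of -0.333 genes turned to 0.167 without SNPC-4 replicate 3. No msp gene gained a peak in all 3 lists, against 0.125% of all protein-coding genes, and none lost one in all 3, against 0.0801%. At msp-50 the mean fold was 52.9 ± 9.35 without snpc-1.3 and 62.3 ± 6.25 with it, and the values overlapped.

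Loss of snpc-1.2 at 72 h gave a wide spread. Its lists held peaks at 6, 1 and 3 msp genes (3.33 ± 2.52, SD, n = 3), overlapping the 3, 2 and 2 of SNPC-4 worms. The first library held 5 of the 9 cluster genes and the second held none, and without the first library the difference from SNPC-4 worms was -0.333 genes, against 1.00 with it. No msp gene gained a peak in all 3 lists, against 0.17% of all genes, or lost one, against 0.626%. At msp-50 the mean fold was 28.4 ± 4.75 without snpc-1.2 and 30.2 ± 4.14 with it, with overlapping values.

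SNPC-1.2 at 72 h had no peak at any msp gene in 3 lists. Of the other protein-coding genes of the smaller cluster 29.4% ± 15.8 had one, and of those of up to 500 bp 11.9% ± 10.9 (SD, n = 3), with 6, 4 and 0 of 28 genes in the 3 lists. A peak in each of the 3 SNPC-1.2 lists and no N2 list was found at 1.87% of all protein-coding genes, and one in each SNPC-1.2 list but none of the AID strain at 1.53%. No msp gene was among either. SNPC-1.1 had a peak at msp-50 in all 3 lists and in no N2 list, a pattern shared by 0.41% of all protein-coding genes. The summit stood 555 to 574 bp from the lower-coordinate end of msp-50, at the place of the SNPC-4 summit. The N2 lists held only 2 to 16 peaks in the SNPC-1.2 set and 28 to 1001 in the SNPC-1.1 set, and the AID lists 67 to 281. Absence from such short lists says little. With lists of equal length the difference between SNPC-1.1 and N2 in msp genes with a peak was 0. Equal length leaves at most 28 peaks per list, the length of the shortest N2 list. In the SNPC-1.1 lists 171, 156 and 186 peaks stood at or above the msp-50 fold. A cut by fold could not keep msp-50, so this 0 says little.

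Other genes of sperm were taken by symbol as 69 protein-coding genes (msd-, ssp-, ssq-, sss-, nspd- and spe- genes with fer-1, gsp-3 and gsp-4). A SNPC-4 peak was found in at least 1 list at 24 of these 69 genes. This is a larger share than the 25.8% of msp genes (8 of 31) and the 25.2% of all protein-coding genes. The sets differ in gene length and in the share of genes in the smaller cluster, and the difference was not tested. Of the 69, 5 passed the exact permutation test against N2 with higher presence in SNPC-4 lists, or 7.25%, against the 8.08% of all protein-coding genes. These were spe-42, which acts in fertilization, spe-6, a kinase of spermatid development, spe-27, which acts in spermatid activation, and spe-55 and spe-48, with mean folds between 2.85 and 5.19. The mean fold of msp-50 over the same 12 lists was 43.5. Annotated piRNA genes overlap the spans of spe-55 (21ur-14544) and spe-27 (21ur-3996), and spe-42 also had a peak in 2 N2 lists.

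The other sperm genes of the smaller cluster, 9 genes, showed the same order with age as the msp genes there. A peak was present at 70.4% ± 6.42 of them at 48 h and at 22.2% ± 0 at 72 h (SD, n = 3), and at 15.6% ± 2.55 and 12.8% ± 1.92 of the 60 others. Of the 69 genes, 6 had a peak in all 3 SNPC-4 lists at 48 h and none at 72 h, and 1 the reverse, or 8.70% and 1.45% beside 0.636% and 1.55% of all protein-coding genes. The list was chosen with results of these data known, so its direction is no independent evidence.

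The counts depend on how a peak is assigned. With a 100 bp window msp-50 lost its peak in all 12 SNPC-4 lists and no msp gene passed the exact permutation test against N2 (2 stood at an unadjusted p under 0.05), while with a 500 bp window 8 did. With folds of 3 or more alone, msp-50 and msp-55 were the only msp genes with a peak. Reads from near-identical msp copies may be lost or shared in mapping, and their part in the missing peaks over the genes themselves was not tested.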

How the data were processed

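Peak lists of 33 IP libraries (66 samples with inputs) were used, 1 list per library called against its own input. Per the submitters' processing notes the tools were MACS2 2.1.2 and deepTools, and the build was WBcel235. The aligner and read filters are not given in the sources used here. The deposited lists give for each summit a fold (a ratio of IP over input signal, computed by the authors), a −log10 q-value and the summit's offset in bp from the region start, which placed each peak. The lowest deposited −log10 q-value was 1.30. Read depth is unknown, so no counting interval is given. Broad regions are split into several summits with the region's start and end repeated.

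Gene spans came from the RefSeq annotation of the same build (46926 genes, no strand), and short RNA genes were its piRNA, tRNA, snRNA, snoRNA, miRNA and rRNA genes. Presence of a peak was tested gene by gene with an exact stratified permutation test over all 19983 protein-coding genes (Python 3.11.15, numpy 2.4.6, pandas 2.3.3, scipy 1.17.1, figures with matplotlib 3.10.9), after a check on simulated data. Other comparisons give counts and mean ± SD with no test beyond the one named. Alternatives were windows of 100 and 500 bp, overlap of the called region, a fold of 3 or −log10 q of 5 as a minimum, lists cut to equal length, genes without a short RNA gene within 500 bp, fewer strains, a replicate block and each library left out. Members and lists were chosen with earlier results of these data known. Every msp gene is a member; those with a peak in at least 2 of 3 lists of a tagged group are named with their values, and other sperm genes are those called against N2 with the highest mean folds. The description of N2 replicate 2 in the SNPC-1.1 set names SNPC-1.2, and it was used as its title says. Among 351 pairs of lists of over 100 peaks, at most 2.85% of summits fell at the same base, so no library appeared deposited again. The labels say that larvae and adults could be harvested from the same cultures, but do not tie numbers to cultures. Promoter and protein sequences were not used here.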

Additional observations from a re-analysis of the deposited data

How the results depend on the processing

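The number of msp genes that passed the exact permutation test against N2 was 1 and stayed at msp-50 with a fold minimum of 3, a −log10 q minimum of 5, lists of equal length and the replicate block. It was 0 with a 100 bp window, where msp-50 has no peak and 2 other msp genes stood at an unadjusted exact permutation p under 0.05, 8 with a 500 bp window and 6 by overlap of the called region. It was 0 in strains without a null allele and 0 with any replicate left out, where 0 protein-coding genes passed and the smallest p was 0.005 and 0.00444, so these settings say nothing about stability. In these designs 2 to 4 msp genes stood at an unadjusted exact permutation p under 0.05. The replicate block, in which 814 of all genes were called against 1615 without it, could not be read as a pairing. Correlations computed to look for a pairing by replicate number lay between -0.216 and 0.0769, none over 0.1. They do not measure how alike the lists are. In the strain without a null allele 2118 protein-coding genes had a peak in all 6 SNPC-4 lists.

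Differences in the mean number of msp genes with a peak moved as follows. SNPC-4 less N2 at 48 h, 6.00, became 2.00 (100 bp), 9.00 (500 bp), 2.00 (fold minimum), 4.67 (q minimum), 1.00 (equal length) and 4.00 (no short RNA gene near), and 5.50 to 6.50 with a library left out. At 72 h, 2.33 became 1.00, 4.00, 1.00, 1.33, 1.00 and 1.67 in that order and 4.00 by region overlap, and 2.00 to 2.50 with a library left out. Against N2, equal length leaves at most 947 peaks per list at 48 h and 1400 at 72 h. At least 52.3% of the list stood at or above the fold of each cluster peak. A cut by fold could not keep those peaks, so the 1.00 under equal length says little about them. SNPC-4 at 48 h less 72 h, 3.67, became 1.00 (100 bp), 4.67 (500 bp), 2.67 (region overlap), 1.00 (fold minimum) and 2.33 (no short RNA gene near), and 3.17 to 4.17 with a library left out.

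The difference without snpc-1.3, -0.333, turned to 0.667 with 100 bp and by region overlap and to 0.167 without SNPC-4 replicate 3. It was -0.833 to 0.167 with a library left out and -1 with lists of equal length. That without snpc-1.2, 1.00, turned to -0.333 without its replicate 1, and was -0.333 to 2.2 with a library left out. SNPC-1.2 less N2, 0, became 1.33 (500 bp) and 0.333 (region overlap), and the AID strain less SNPC-1.2 became -1.33 and -0.333. SNPC-1.1 less N2, 1.00, became 0 (100 bp, and equal length) and 3.00 (500 bp). Equal length there leaves at most 28 peaks per list, too few to keep msp-50 by its fold. N2 at 48 h less 72 h, 0, became -0.333 (500 bp). The cause of these moves was not tested beyond what each setting counts. The msp-50 fold ratio, 2.06, was 1.92 to 2.20 with a library left out, and 2.74 and 2.50 with folds divided by each list's median over shared genes and over shared genes of mean fold 20 or more, settings added after the data were seen.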

Other observations

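Among the 1782 protein-coding genes with a peak in all 12 SNPC-4 lists, the median of the mean fold was 4.25 and that of msp-50 was 43.5, which 23 genes exceeded. Of the 1367 with no annotated short RNA gene within 500 bp, 3 exceeded it (ceh-8, C17G10.6 and W01D2.3). Of the 1170 with no annotated non-coding RNA gene of any kind within 500 bp, 0 exceeded it. These groupings were chosen after the values were seen, neighbouring genes can share a summit, and no test was made.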
